A study of Mus musculus with 9 samples.

Results

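The comparison described here is FICZ against DMSO in wild-type (WT) colon organoids. It rests on 5 of the 9 samples of the series, those whose labels give the wild-type genotype. Colon organoids are hollow epithelial bodies that grow in Matrigel from isolated crypts of the mouse colon. Their medium, WENR, holds Wnt-3A, EGF, Noggin and R-spondin-1, which favour stem cells, and they were exposed for 4 h to 5 nM FICZ or to its solvent DMSO. WT DMSO had n = 2 samples (numbered 2 and 3) and WT FICZ had n = 3 (numbered 1, 2 and 3). The other 4 samples come from AHR KO organoids, 2 with DMSO and 2 with FICZ under the same medium, dose and time. According to the methods of the study, these carry floxed Ahr alleles and a Cre driven by the Villin promoter, which is active in the intestinal epithelium. They entered the fit to share the estimate of the spread, and their change is given beside the WT change where the pair is of interest. The labels do not state whether the samples of a group are separate animals, while the methods of the study speak of biological replicates, so that the p-values measure the spread between these samples.

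The aryl hydrocarbon receptor (AHR) is a ligand-activated transcription factor. In the resting state it is held in the cytosol by heat shock protein HSP90 and co-chaperones. After binding a ligand such as the tryptophan photoproduct FICZ it enters the nucleus, pairs with ARNT and binds a short DNA element in or near target genes. Classical targets encode enzymes that oxidise and conjugate foreign compounds, and others limit the receptor itself. In the colon, dietary and microbial ligands reach the epithelium, where AHR is known to act on barrier function and on the balance of stem and differentiated cells.

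Values are normalised read counts, tested as log2(value + 1) with limma over 12741 genes that averaged at least 10 in the 9 samples. A gene was called at a Benjamini-Hochberg adjusted p under 0.05. The 12 epithelial markers examined (among them Epcam, Cdh1, Vil1 and Krt8) summed to between 385985 and 420239 normalised counts in the 5 WT samples. The 10 fibroblast markers summed to 57.5 and 86.8 in WT DMSO and to between 90.2 and 111 in WT FICZ, nearly all of it from Pdgfrb, and the part of such cells in the results was not tested. Immune markers did not exceed 21.95, smooth muscle markers 5.5, endothelial markers 57.8 and glial and neuronal markers 87.3 in any WT sample. Ptprc, the pan-leukocyte antigen, is among the 7 of 12 immune markers at 0 in all WT samples. The Paneth cell markers, of which Mmp7 and Ang4 were detected, summed to 620 and 850 in WT DMSO and to between 508 and 556 in WT FICZ, without a called member. Total normalised counts spanned 23177058 to 25033827 per sample. Transcripts of Gm26917 and Gm42418, which lie beside ribosomal RNA sequence, took 0.845 and 0.465% of the signal in WT DMSO and 1.202 to 1.535% in WT FICZ. Malat1 went from 3937 and 2921 to 6716, 4218 and 4747 (log2 fold change 0.595, limma adjusted p = 0.037). Neat1 was not called (log2 fold change -0.22, limma adjusted p = 0.404). The part of these transcripts in the results was not tested. Fewer cells of a type and less RNA per cell cannot be told apart in such bulk samples.

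Many genes differed between WT FICZ and WT DMSO by small amounts and few by large ones. Of the genes tested, 3928 were called (30.8%), of which 1930 were higher (15.1%) and 1998 lower (15.7%). Protein-coding genes made up 11805 of those tested, and 1856 of them were called higher (15.7%) and 1939 lower (16.4%). A change of at least 2-fold was reached by 102 protein-coding genes upward and by 36 downward. The median absolute log2 fold change of all called genes was 0.37. The number of calls rested on both WT DMSO samples, since it was 1990 without WT DMSO replicate 2 and 2270 without WT DMSO replicate 3. Counts for the gene groups below are therefore followed by those found without each of these samples in turn (DMSO 2 and DMSO 3), the number higher always first. Calls higher and calls lower over all genes also fell in both fits. A smaller group count there is to be read against that fall, and not as a result about the group.

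The small changes followed base composition. Among the quintile of genes with the highest GC content of their transcripts, 38.6% were called higher and 2.36% lower. Among the quintile with the lowest GC content, 2.40% were called higher and 31.6% lower. The median log2 fold change rose from -0.18 in the lowest to 0.26 in the highest quintile in WT, and from -0.20 to 0.28 in AHR KO, so that this slope was present in both genotypes. After a smooth trend with GC content and transcript length was removed from each sample, 2313 genes were called (18.2%), 1025 higher (8.07%) and 1288 lower (10.1%). Of the 3928 genes, 1792 kept their call in the same direction. Counts with this trend removed are given beside those of the gene groups below, where they are to be read against 8.07% higher and 10.1% lower, and the counts without removal against 15.1 and 15.7%. Group counts for AHR KO are to be read against 10.2% higher and 9.48% lower, the shares over all genes there. The part of the trend in each result was not tested further.

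**Figure D1:**
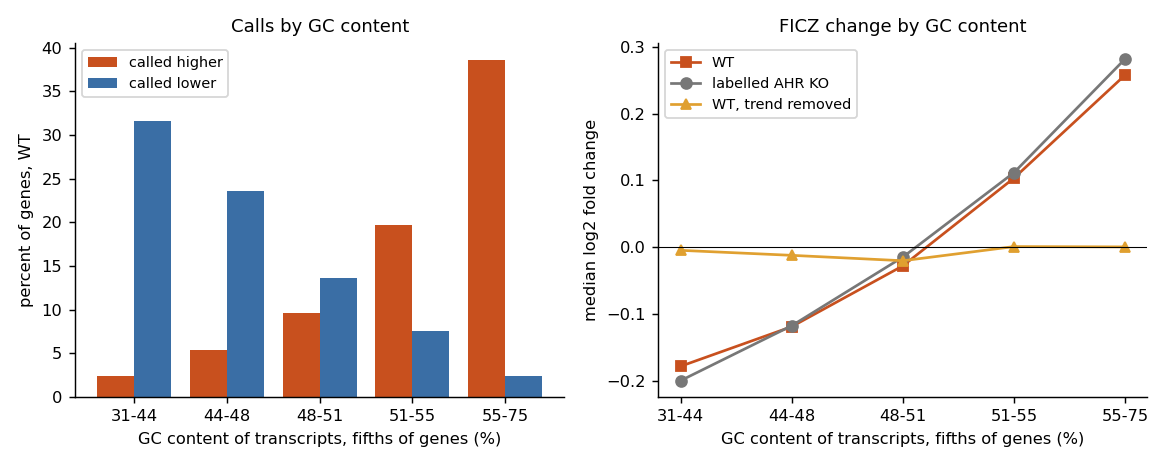
Left, percent of genes called higher or lower with FICZ in WT organoids in quintiles of the genes tested, ordered by GC content of their transcripts. Right, median log2 fold change of the same quintiles in WT, in samples labelled AHR KO, and in WT after the trend with GC content and length was removed. Calls upward rise from 2.40 to 38.6% and calls downward fall from 31.6 to 2.36% from the lowest to the highest quintile, and the WT and AHR KO lines run together.

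The receptor, its partners and its feedback genes were examined first. Of 13 genes of this group, 2 were called higher and 4 lower (2 higher and 4 lower with the trend removed, 2 and 1 without DMSO 2, 2 and 2 without DMSO 3). The transcript of Ahr itself stood at 787 and 858 normalised counts in WT DMSO and at 791, 798 and 783 in WT FICZ (adjusted p = 0.539, limma), and its partner Arnt at 1674 and 1719.6 and at 1605, 1769 and 1723 (adjusted p = 0.992). Both genes that rose encode proteins that limit AHR. Ahrr, the AHR repressor, which competes for ARNT, had 1.49 and 1.51 counts in WT DMSO and 568, 427 and 435 in WT FICZ. Tiparp, an ADP-ribosyltransferase that marks AHR for degradation, had 1485 and 1420.2 against 4989, 5723 and 4923 (log2 fold change 1.84 ± 0.0835 (SE), limma adjusted p = 1.86e-06). For neither gene did the groups overlap, which held for 3923 of the 3928 genes called. Among the genes that fell, Hsp90aa1, a form of the HSP90 chaperone that holds AHR in the cytosol, was at 25842 and 27007 and dropped to 17552, 20775 and 17824 (log2 fold change -0.50 ± 0.0759 (SE), limma adjusted p = 0.00122). Its log2 change in AHR KO was -0.36 (adjusted p = 0.016).

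The promoters of the most induced genes are shown because AHR and ARNT bind the core GCGTG. The 15 protein-coding genes with the highest change were taken from called genes that averaged at least 50 in the 9 samples, with no overlap between groups. Windows of 300 bases (250 before to 50 after the RefSeq start, GRCm38.p6) were found for 12 of these 15, and 7 of these 12 held the core on either strand. The 4 with the highest change among these are printed 5′ to 3′ along the gene, with the core GCGTG or its reverse complement CACGC in capitals. The RefSeq start used for Cyp1a1 lies 9685 bases downstream of the start of the gene in GENCODE. Cyp1a1 and Cyp1b1 encode cytochrome P450 enzymes that oxidise polycyclic compounds, and Slc2a6 a sugar transporter.
Cyp1a1, chr9:57697363-57697662, plus strand: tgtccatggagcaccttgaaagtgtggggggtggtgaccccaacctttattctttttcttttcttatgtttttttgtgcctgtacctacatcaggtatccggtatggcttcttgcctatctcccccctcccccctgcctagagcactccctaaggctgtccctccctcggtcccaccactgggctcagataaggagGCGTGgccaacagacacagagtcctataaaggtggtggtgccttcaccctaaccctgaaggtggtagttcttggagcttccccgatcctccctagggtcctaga
Ahrr, chr13:74292282-74292581, minus strand: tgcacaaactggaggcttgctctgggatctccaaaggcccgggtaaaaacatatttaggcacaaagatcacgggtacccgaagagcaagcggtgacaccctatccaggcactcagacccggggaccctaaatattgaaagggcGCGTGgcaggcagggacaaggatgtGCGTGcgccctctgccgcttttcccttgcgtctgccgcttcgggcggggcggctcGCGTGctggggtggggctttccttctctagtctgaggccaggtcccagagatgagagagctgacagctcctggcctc
Slc2a6, chr2:27027949-27028248, minus strand: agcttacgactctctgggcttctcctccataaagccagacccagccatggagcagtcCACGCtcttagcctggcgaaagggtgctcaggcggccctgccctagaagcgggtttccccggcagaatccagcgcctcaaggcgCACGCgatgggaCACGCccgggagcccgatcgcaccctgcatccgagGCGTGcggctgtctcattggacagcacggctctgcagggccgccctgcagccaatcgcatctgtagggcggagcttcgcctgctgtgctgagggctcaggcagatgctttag
Cyp1b1, chr17:79715012-79715311, minus strand: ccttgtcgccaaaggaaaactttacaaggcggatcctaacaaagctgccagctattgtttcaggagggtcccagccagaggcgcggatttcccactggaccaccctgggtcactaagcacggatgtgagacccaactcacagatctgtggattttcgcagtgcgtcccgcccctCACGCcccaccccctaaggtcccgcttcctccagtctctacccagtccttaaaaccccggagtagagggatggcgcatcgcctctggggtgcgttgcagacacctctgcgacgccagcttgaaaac
The Ahrr window holds 3 cores and the Slc2a6 window 4, against 1 each in those of Cyp1a1 and Cyp1b1. Such cores are common. Of 9607 promoter windows of genes tested, 53.01% held GCGTG, with 55.4% of the genes called higher, 55.6% of those called lower and 51.8% of those not called. The longer form TNGCGTG was held by 8.39% of all windows, by 8 of 80 genes called higher at least 2-fold (10%) and by 3 of 25 called lower at least 2-fold (12.0%). The core GCGTG was in 36 of the same 80 windows (45%), below its share over all windows, and in 12 of the 25 (48%). For the AP-1 motif TGANTCA the shares were 4.80% of all windows and 5.10% of those called higher, for the TEAD motif GGAATG 11.7 and 12.0%, and for TGACNNNGC, the antioxidant response element, 14.8 and 13.9%. Among the 36 windows of genes whose change was larger in WT than in AHR KO, GCGTG was in 52.8%, TNGCGTG in 16.7%, TGANTCA in 11.1%, GGAATG in 11.1% and TGACNNNGC in 25%, which is 4 to 19 windows a motif. A match is a description of the letters in the window and not of binding. The study placed most AHR-bound sites in open chromatin in intragenic and intergenic regions, which windows at the gene start can miss. Elements outside the windows were not examined.

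The 15 protein-coding genes with the highest change held metabolic enzymes, membrane proteins and feedback genes. They were taken from called genes that averaged at least 50 in the 9 samples, with no overlap between groups. Cyp1a1, the classical AHR target, had 5.84 and 0 normalised counts in WT DMSO and 7797, 6987 and 7958 in WT FICZ (log2 fold change 11.50 ± 0.71 (SE), limma adjusted p = 1.57e-05). With so few counts in WT DMSO the size of this change depends on the pseudocount, and it was 9.996 between the samples numbered 2 and 12.96 between those numbered 3. Cyp1b1 went from 1632 and 1078 to 10220.3, 10599.6 and 8898, and Slc2a6 from 164 and 129.9 to 1545, 1238 and 1383 (log2 fold changes 2.90 and 3.23). Tbc1d16, a GTPase-activating protein for Rab proteins of vesicle transport (chromosome 11, 119143045 to 119228499 on GRCm38), went from 39 and 36 to 148, 163 and 146 (log2 fold change 1.99 ± 0.19 (SE), limma adjusted p = 0.000195). Hspg2, which encodes the basement membrane proteoglycan perlecan (chromosome 4, 137468769 to 137570630), went from 207 and 146 to 588, 493 and 472 (log2 fold change 1.56 ± 0.19 (SE), limma adjusted p = 0.000432, 0.999 with the trend removed, and 0.69 in AHR KO). In both genes every WT FICZ sample lay above both WT DMSO samples, which the choice of genes without overlap required. Stk32c, a serine/threonine kinase, had 35.1 and 36.9 against 116, 118 and 84.5 (log2 fold change 1.52, adjusted p = 0.0011), and Lypd6b, a protein of the Ly6 family, had 60 and 53.5 against 171, 150.3 and 171 (log2 fold change 1.52, adjusted p = 0.000635). The hedgehog ligand Ihh, from 40.5 and 47.6 to 177, 89.1 and 136, is in the same set (log2 fold change 1.53, adjusted p = 0.00679), but its call was lost without WT DMSO replicate 2 (adjusted p = 0.0579) and its change in AHR KO was as large (1.69).

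**Figure D2:**
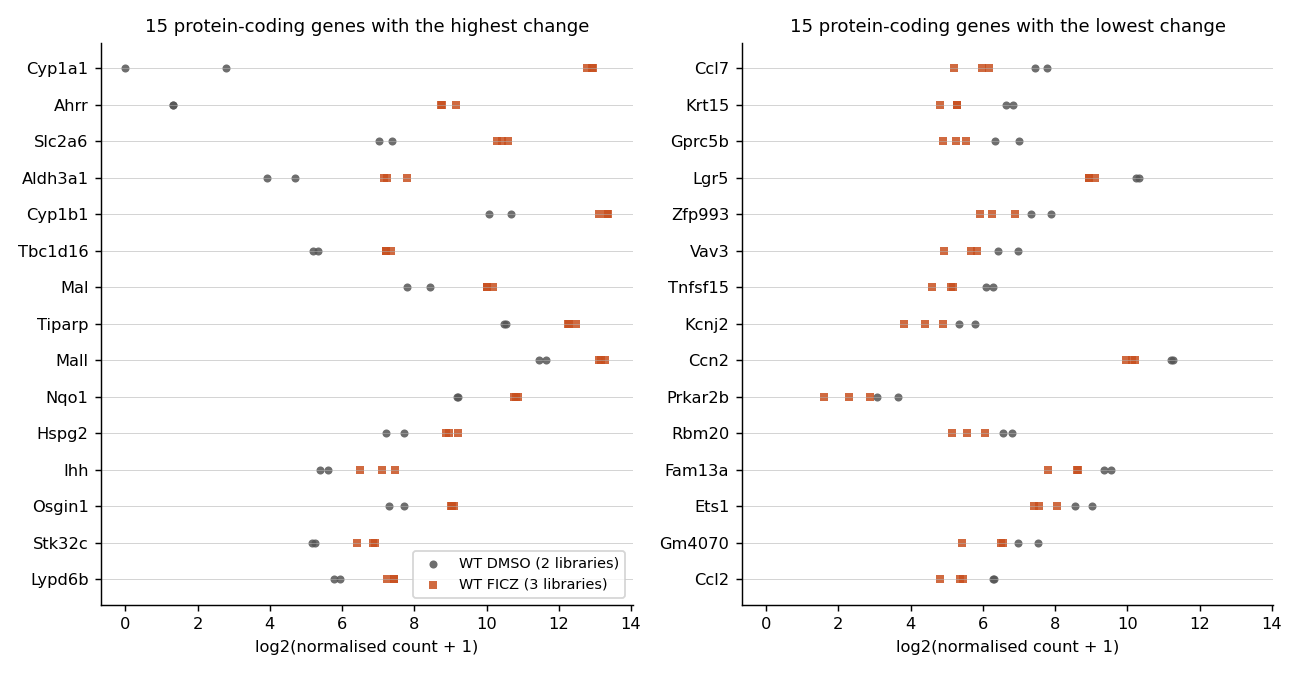
Normalised counts, as log2(value + 1), of the 15 protein-coding genes with the highest (left) and the 15 with the lowest (right) log2 fold change among genes called in WT that averaged at least 50 in the 9 samples, with no overlap between groups. Each grey circle is a WT DMSO sample (n = 2) and each orange square a WT FICZ sample (n = 3). Prkar2b stands apart from the other genes on the right, at 2.01 to 11.7 normalised counts in WT, since the mean of 50 is reached through AHR KO samples.

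Of these 15 genes with the lowest change, the keratin Krt15, a marker of long-lived crypt cells (chromosome 11, 100131758 to 100135928), went from 113 and 99.1 in WT DMSO to 37.8, 37.7 and 27.3 in WT FICZ (log2 fold change -1.62 ± 0.32 (SE), limma adjusted p = 0.00466). The orphan receptor gene Gprc5b (chromosome 7, 118972047 to 118995211) went from 127 and 79.2 to 37.5, 44.9 and 28.7 (log2 fold change -1.43 ± 0.27 (SE), limma adjusted p = 0.00348). The transcription factor Ets1 went from 518 and 374 to 189, 265 and 170.2 (log2 fold change -1.10, adjusted p = 0.00191). For these 3 genes the AHR KO log2 fold changes were -0.17, -0.19 and -0.078, and the difference from WT did not pass the test (interaction adjusted p = 0.426, 0.4 and 0.258). Calls of Zfp993, Vav3, Rbm20, Kcnj2 and Gm4070 ended without WT DMSO replicate 2 (adjusted p 0.0887, 0.0892, 0.0877, 0.129 and 0.171). Those of Fam13a and Prkar2b ended without any of several samples, among them WT DMSO replicate 3 (adjusted p 0.0669 and 0.257). They are therefore given as values in the plot alone.

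Of 42 phase I enzymes, which introduce reactive groups into foreign compounds, 7 were called higher and 4 lower (5 higher and 0 lower with the trend removed, 6 and 0 without DMSO 2, 5 and 1 without DMSO 3). The share higher was 16.7%, near the 15.1% over all genes. Their median log2 fold change was 0.092, against -0.01 over all genes. Cyp1a1, Aldh3a1 and Cyp1b1 led the members that rose. Aldh3a1, an aldehyde dehydrogenase, had 25.2 and 14 counts in WT DMSO and 221, 142 and 151 in WT FICZ (log2 fold change 3.09 ± 0.33 (SE), limma adjusted p = 0.000268). Aldh2, the mitochondrial form, was at 4329 and 4432 against 4430.4, 4388 and 5021 (adjusted p = 0.492). Of 40 phase II enzymes and efflux pumps, which conjugate and export such compounds, 10 rose and 2 fell (8 higher and 2 lower with the trend removed, 6 and 1 without DMSO 2, 4 and 0 without DMSO 3). The UDP-glucuronosyltransferase Ugt1a7c had 4463 and 4396 against 7786, 7799 and 8298 (log2 fold change 0.85 ± 0.12 (SE), limma adjusted p = 0.000863), and it shares its 3′ exons with the other Ugt1a genes, among which reads can be split. The microsomal glutathione S-transferase Mgst3 had 1322 and 1295 against 1856, 1708 and 1907 (log2 fold change 0.48, adjusted p = 0.00192), with a like change in AHR KO (0.38).

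Genes of the NRF2 pathway and of redox control rose in 17 of 52 cases, against 15.1% of all genes tested. NRF2, encoded by Nfe2l2, is a transcription factor that KEAP1 keeps low and that induces antioxidant enzymes. Another 3 fell (15 higher and 4 lower with the trend removed, 9 and 1 without DMSO 2, 7 and 1 without DMSO 3). Nfe2l2 itself went from 9856 and 9099 to 13082, 12559 and 12876 (log2 fold change 0.44 ± 0.0501 (SE), limma adjusted p = 0.000352), while in AHR KO it fell (log2 fold change -0.27, adjusted p = 0.00946). Nqo1, a quinone reductase, and Osgin1, an oxidative stress-induced growth inhibitor, changed most. Nqo1 had 581 and 595 against 1864, 1809 and 1725 (log2 fold change 1.61) and Osgin1 157 and 209.6 against 516, 542 and 525 (log2 fold change 1.53 ± 0.15 (SE), limma adjusted p = 0.000201). The change was smaller for Srxn1, which repairs peroxiredoxins (2034 and 1869 against 3167, 3142 and 2989.6, log2 fold change 0.67, adjusted p = 0.000182), and for the ferritin light chain Ftl1 (18359 and 18043 against 28354, 27364 and 27135, log2 fold change 0.60, adjusted p = 0.000163, and 0.40 with the trend removed). In AHR KO Srxn1 rose by 0.28 and Ftl1 by 0.55 (limma adjusted p = 0.0207 and 0.00143). Of 2 other common NRF2 targets that did not pass the test, Hmox1, haem oxygenase, was at 489 and 471 against 463, 543 and 541 (adjusted p = 0.428), and Gclm, a subunit of the glutathione-forming ligase, at 4533 and 4801 against 4989, 3982 and 4388 (adjusted p = 0.542). Nox1, the catalytic subunit of the colonic superoxide-forming NADPH oxidase, went the other way, from 874 and 821 to 462, 338 and 516 (log2 fold change -0.97 ± 0.16 (SE), limma adjusted p = 0.00201), with -0.77 in AHR KO (adjusted p = 0.0159).

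Mal and Mall encode related proteolipids of lipid rafts that act in apical transport, and their genes lie near each other (chromosome 2, 127633226 to 127656695 for Mal and chromosome 2, 127704386 to 127729932 for Mall). Mal had 346 and 220.3 normalised counts in WT DMSO and 1156, 1032 and 1037 in WT FICZ (log2 fold change 1.95 ± 0.18 (SE), limma adjusted p = 0.000163). Mall had 3215 and 2808 against 9142, 8879.9 and 9911 (log2 fold change 1.63 ± 0.10 (SE), limma adjusted p = 1.68e-05), and is thus the more abundant in counts. Sytl2, a Rab27 effector of vesicle docking, had 472 and 384 against 906, 925 and 1011 (log2 fold change 1.15 ± 0.15 (SE), limma adjusted p = 0.000652). None of these 3 genes was called in AHR KO (log2 fold changes 0.068, 0.21 and -0.17), and the WT change exceeded the AHR KO change in each (interaction adjusted p = 0.0141, 0.00232 and 0.0416, limma). With 1 sample left out in turn, this call held for Mal in 7 of 9 fits, adjusted p up to 0.103 without AHR KO DMSO replicate 3. For Mall it held in 9 of 9 fits, adjusted p up to 0.026 without AHR KO DMSO replicate 3, and for Sytl2 in 1 of 9 fits, adjusted p up to 0.235 without AHR KO DMSO replicate 1. Their relative Mal2 was at 9481 and 9243 against 8313, 8790.4 and 8591 (adjusted p = 0.139). Of 25 goblet cell and secretory genes, 6 rose, Mal and Sytl2 among them, and 1 fell (4 higher and 1 lower with the trend removed, 3 and 2 without DMSO 2, 4 and 0 without DMSO 3). Like the other lists, that of goblet cell and secretory genes was chosen with earlier results of these data known. Its count, with Mal and Sytl2 in it, is therefore not independent evidence. The mucin Muc2, the defining goblet product, was at 125 and 294 in WT DMSO and at 435, 73.1 and 347 in WT FICZ (adjusted p = 0.834). The transmembrane mucin gene Muc3 had 1468 and 1578 against 3195, 2327 and 2892 (log2 fold change 0.87, adjusted p = 0.00941), a call lost without WT DMSO replicate 2 (adjusted p = 0.0683). The 7 enteroendocrine and tuft cell genes tested gave no call by limma (0 of 7, with at most 1 upward or 1 downward on leaving out a sample and at most 2 downward under other settings), with 1 higher and 1 lower at an unadjusted p under 0.05.

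Several transcription factors of intestinal identity rose in WT. Of 42 genes, 12 were called higher and 2 lower (5 higher and 1 lower with the trend removed, 9 and 1 without DMSO 2, 7 and 1 without DMSO 3). The median log2 fold change of the group was 0.16, set beside -0.033 for the AHR KO samples. With the GC and length trend removed the median was 0.044. In AHR KO 2 rose and 1 fell. The study dealt with Cdx2 on these organoids, so that the list is not independent evidence of its direction. Cdx2, the caudal homeobox factor of the intestine, had 4099.6 and 3644 against 7393, 6006 and 6869.8 (log2 fold change 0.80, and 0.56 with the trend removed). Esrra, an orphan nuclear receptor of mitochondrial genes, had 1028 and 1065 against 1822, 1658 and 1781 (log2 fold change 0.74 ± 0.0841 (SE), limma adjusted p = 0.000336) with a like change in AHR KO (0.63). The epithelial ETS factor Ehf fell from 12875 and 11824 to 8404, 8652 and 9064 (log2 fold change -0.50 ± 0.0564 (SE), limma adjusted p = 0.000319), with -0.40 in AHR KO. Klf5, a factor of proliferating crypt cells, was at 10646 and 9424 against 13359, 9624 and 12694 (adjusted p = 0.164).

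Of 46 mature colonocyte genes, 5 rose and 6 fell, with a median of 0.048 (4 higher and 5 lower with the trend removed, 1 and 4 without DMSO 2, 3 and 6 without DMSO 3). Slc26a2, a sulphate transporter, rose from 6417 and 6278 to 8778, 8986 and 9040 (log2 fold change 0.49 ± 0.0445 (SE), limma adjusted p = 0.000143), with -0.12 in AHR KO (interaction adjusted p = 0.00231). Other members fell. The chloride channel gene Cftr went from 2013 and 2149 to 1180.5, 1283 and 1244 (log2 fold change -0.75 ± 0.0805 (SE), limma adjusted p = 0.000271). The microvillar linker Ezr went from 35154 and 32323 to 22139.7, 17802 and 21042 (log2 fold change -0.74 ± 0.0879 (SE), limma adjusted p = 0.000417), and Car12, a carbonic anhydrase, from 1061 and 1183 to 792, 631 and 768 (log2 fold change -0.62, adjusted p = 0.0017). Cftr and Ezr were also lower with FICZ in AHR KO (-0.46 and -0.46). The late markers Slc26a3 (24.1 and 16.4 against 35.6, 25.6 and 32.1) and Krt20 (1050.4 and 985 against 853, 918 and 1149) were not called (adjusted p = 0.243 and 0.756).

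Of 53 stem cell and Wnt pathway genes, 10 rose and 8 fell (3 higher and 8 lower with the trend removed, 6 and 5 without DMSO 2, 5 and 8 without DMSO 3). These are 18.9 and 15.1% of the group, near the 15.1 and 15.7% over all genes, and the median was 0.021. Lgr5, the R-spondin receptor of cycling stem cells, had 1271 and 1200 in WT DMSO and 490.5, 547 and 492 in WT FICZ (log2 fold change -1.28), and Sox9, a factor of progenitor cells, 3696 and 3551 against 2186, 1665 and 1951 (log2 fold change -0.91). The receptor inhibitor Lrig1, another stem cell marker, fell from 3447 and 3300 to 2612, 2657 and 2683 (log2 fold change -0.35 ± 0.0466 (SE), limma adjusted p = 0.000679). In AHR KO these 3 genes changed by -0.033, 0.10 and 0.045, and the difference from WT was called for each (interaction adjusted p = 0.00784, 0.0113 and 0.0456). With 1 sample left out in turn, that call held for Lgr5 in 8 of 9 fits, adjusted p up to 0.0611 without AHR KO DMSO replicate 3. For Sox9 it held in 5 of 9 fits, adjusted p up to 0.087 without AHR KO DMSO replicate 3, and for Lrig1 in 1 of 9 fits, adjusted p up to 0.258 without AHR KO DMSO replicate 1. The Wnt target Rnf43 rose from 3115 and 3108 to 3794, 3881 and 3877 (log2 fold change 0.31, adjusted p = 0.000937), a call lost with the trend removed (log2 fold change 0.12, adjusted p = 0.109). Ascl2, a factor of stem cells, was at 300.4 and 196 against 295, 235 and 245 (adjusted p = 0.756), and Axin2, a feedback target of Wnt, was at 3141 and 2854 against 3489, 3237 and 3276 (adjusted p = 0.0679). Tcf7l2, the DNA-binding partner of beta-catenin, rose from 1396 and 1369.6 to 2625, 1952 and 2594 (log2 fold change 0.78 ± 0.11 (SE), limma adjusted p = 0.00107). Axin1, the scaffold of the complex that destroys beta-catenin, fell from 2715 and 2452 to 2016, 1954 and 1729.6 (log2 fold change -0.44 ± 0.08 (SE), limma adjusted p = 0.00285). Ctnnb1, which encodes beta-catenin, lay at 26026 and 24561 against 23959.8, 26544 and 24171 (adjusted p = 0.796).

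Of 44 genes of the YAP/TEAD pathway, which responds to cell shape and injury, 7 rose and 8 fell (5 higher and 8 lower with the trend removed, 5 and 6 without DMSO 2, 4 and 9 without DMSO 3). The matricellular genes Ccn2 (2467 and 2370.1 against 1109, 1174 and 992) and Ccn1 (999.8 and 891 against 609, 591 and 541) fell, as did the tissue factor gene F3 (7062 and 5324 against 3119.8, 3703 and 3426, log2 fold change -0.85 ± 0.12 (SE), limma adjusted p = 0.000898) and the alarmin Il33 (584 and 512 against 247, 358 and 321). Ereg, the EGF receptor ligand epiregulin, rose from 1421 and 1251 to 2233, 2234 and 2232 (log2 fold change 0.74 ± 0.0691 (SE), limma adjusted p = 0.000163), with -0.16 in AHR KO (interaction adjusted p = 0.00362). Yap1 itself did not pass the test (3046 and 2946 against 2898, 3098 and 2975, adjusted p = 0.971). Of the genes of fetal-like and regenerating epithelium (32 tested), 7 rose and 7 fell (3 higher and 3 lower with the trend removed, 5 and 2 without DMSO 2, 5 and 7 without DMSO 3). Among them were Ly6d (180 and 112 to 239, 297 and 291, log2 fold change 0.95, adjusted p = 0.00412) and Tmsb10 (33653 and 30687 to 24668, 23034 and 24829, log2 fold change -0.41), while Ly6a, which encodes Sca-1, and Clu were not called (-0.16 and -0.025).

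Among 28 Notch pathway genes, 6 rose and 3 fell (2 higher and 5 lower with the trend removed, 4 and 3 without DMSO 2, 2 and 2 without DMSO 3). The ligand Jag1 went from 1073 and 967 to 668, 669 and 613 (log2 fold change -0.65 ± 0.0804 (SE), limma adjusted p = 0.000477). The regulator Dtx4 went from 576 and 488 to 336, 307 and 323 (log2 fold change -0.72 ± 0.10 (SE), limma adjusted p = 0.00088). The receptor Notch2 rose from 1706 and 1525 to 2454, 2268 and 2366 (log2 fold change 0.55, adjusted p = 0.00058, 0.34 with the trend removed, and 0.37 in AHR KO). The target Hes1 was at 1061 and 1059 against 1182, 1149 and 1162 (adjusted p = 0.152). The BMP and TGF-beta group (35 genes) gave 5 calls upward and 2 downward (4 higher and 3 lower with the trend removed, 3 and 2 without DMSO 2, 5 and 1 without DMSO 3). It was led by the stress cytokine Gdf15 (99.4 and 75.5 to 199, 198 and 199.6, log2 fold change 1.19, 0.79 with the trend removed, and 0.94 in AHR KO) and by the signal transducer Smad2 (1738 and 1756 to 1139.8, 1025 and 1138, log2 fold change -0.67, and -0.52 in AHR KO). EGF family and MAPK feedback genes (31) gave 7 upward and 4 downward (3 higher and 6 lower with the trend removed, 7 and 2 without DMSO 2, 3 and 2 without DMSO 3). Of 9 hedgehog pathway genes, 3 rose and 1 fell (2 higher and 1 lower with the trend removed, 0 and 0 without DMSO 2, 2 and 0 without DMSO 3). The 23 retinoid pathway genes gave 4 higher and 2 lower with the trend removed, 5 and 1 without DMSO 2, 4 and 2 without DMSO 3. Over all samples 6 rose, among them the receptor Rxrb (434 and 481 to 757, 728 and 759, log2 fold change 0.71, 0.28 with the trend removed, and 0.56 in AHR KO). Another 3 fell, among them the retinal reductase Rdh11 (3308 and 3299 to 2322, 2604 and 2471, log2 fold change -0.42).

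Of 54 cytokine and chemokine genes, 15 rose and 10 fell, with a median of 0.051 (9 higher and 8 lower with the trend removed, 11 and 4 without DMSO 2, 10 and 7 without DMSO 3). Ccl28, a mucosal chemokine of epithelial cells that draws IgA plasma cells (chromosome 13, 119623819 to 119654359), rose from 262 and 223 to 753, 603 and 697 (log2 fold change 1.49 ± 0.20 (SE), limma adjusted p = 0.000656), with -0.43 in AHR KO (interaction adjusted p = 0.0206, called with 1 sample left out in 3 of 9 fits, adjusted p up to 0.138 without AHR KO DMSO replicate 3). Cxcl10, an interferon-induced chemokine for T cells, fell from 59.3 and 61.9 to 25.5, 23.5 and 25.8 (log2 fold change -1.25 ± 0.21 (SE), limma adjusted p = 0.00217). The decoy receptor gene Tnfrsf11b, which encodes osteoprotegerin, fell from 2997 and 1919 to 1159, 1244 and 1051 (log2 fold change -1.06 ± 0.15 (SE), limma adjusted p = 0.000937). The T cell costimulator Tnfsf15, which is not in the list counted above, fell from 67.2 and 76.4 to 23.1, 34 and 35 (log2 fold change -1.22 ± 0.25 (SE), limma adjusted p = 0.00556). The monocyte chemokines Ccl7 (172 and 219.8 to 35.6, 62.2 and 70.9) and Ccl2 (77 and 78.8 to 27.1, 42.9 and 40.5) were lower (log2 fold changes -1.83 and -1.09), but the call of Ccl7 was lost without WT DMSO replicate 3 (adjusted p = 0.0525) and that of Ccl2 without WT DMSO replicate 2 (adjusted p = 0.0551) or WT DMSO replicate 3 (adjusted p = 0.0558). For these 5 genes that fell the AHR KO changes ranged from -0.42 to 0.34 and none was called, and the differences from WT did not pass the test either (interaction adjusted p from 0.132 to 0.543). Signalling genes changed less, such as Il6st, the shared receptor of the interleukin-6 family (3519 and 3496 to 4951, 4929.8 and 4735, log2 fold change 0.47, adjusted p = 0.000264), Nfkbiz (1251 and 1397 to 1854, 1657 and 1800.2, log2 fold change 0.42) and Socs1, which rose alike in AHR KO (0.88 and 0.83, and 0.58 in WT with the trend removed).

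The prostaglandin group held 1 call among 20 genes (2 higher and 0 lower with the trend removed, 1 and 0 without DMSO 2, 2 and 0 without DMSO 3). Ptgs2, the inducible cyclooxygenase (chromosome 1, 150100031 to 150108227), rose from 222 and 148 to 464, 491 and 470.1 (log2 fold change 1.39 ± 0.17 (SE), limma adjusted p = 0.000476), against -0.27 in AHR KO (interaction adjusted p = 0.0206, called with 1 sample left out in 4 of 9 fits, adjusted p up to 0.128 without AHR KO DMSO replicate 1). Ptgs1, the constitutive form, was at 24.3 and 33.2 against 34.9, 30.6 and 31.7, and the degrading enzyme Hpgd at 220 and 226 against 207, 172 and 158 (adjusted p = 0.536 and 0.293). Of 59 interferon response and antigen presentation genes, 14 rose and 4 fell (5 higher and 1 lower with the trend removed, 11 and 0 without DMSO 2, 5 and 2 without DMSO 3). Ddx58, the RNA sensor RIG-I, rose from 2797 and 2620.3 to 5095, 5032 and 5074 (log2 fold change 0.90 ± 0.0476 (SE), limma adjusted p = 4.46e-06), with -0.11 in AHR KO (interaction adjusted p = 0.000155), while the interferon target Isg15 was at 538 and 481 against 541, 545 and 643 (adjusted p = 0.321).

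Solute carriers formed the largest functional group examined apart from zinc fingers, and 60 of 210 members rose while 13 fell (45 higher and 7 lower with the trend removed, 35 and 6 without DMSO 2, 39 and 10 without DMSO 3). The medians were 0.18 in WT and 0.14 in AHR KO. Slc25a48, a mitochondrial carrier (chromosome 13, 56438355 to 56474239), rose from 2174 and 2121 to 4161, 4428 and 4331 (log2 fold change 1.003 ± 0.0477 (SE), limma adjusted p = 2.11e-06), with -0.028 in AHR KO (interaction adjusted p = 0.000155). The monocarboxylate carrier Slc16a11 rose from 70.5 and 76.6 to 206, 179 and 187 (log2 fold change 1.36, and 0.89 with the trend removed), and by 1.04 in AHR KO. Slc10a2, the apical bile acid transporter, was low and fell from 31.2 and 37.7 to 6.6, 6.18 and 7.01 (log2 fold change -2.22 ± 0.32 (SE), limma adjusted p = 0.000956), against -0.68 in AHR KO (adjusted p = 0.199, interaction adjusted p = 0.367). Fgf15, the hormone that reports bile acids to the liver, was chosen after its values were seen, and rose from 112 and 108 to 259, 269 and 217 (log2 fold change 1.164 ± 0.14 (SE), limma adjusted p = 0.000408).

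Cell cycle and DNA replication genes fell more often than they rose (28 lower and 4 higher of 85, median -0.13), with 2 higher and 18 lower with the trend removed, 3 and 11 without DMSO 2, 2 and 15 without DMSO 3. In AHR KO the counts of the group also leaned downward (13 lower and 4 higher, median -0.10). Ccne2, a cyclin of entry into S phase, went from 998 and 1236 to 712, 694 and 771 (log2 fold change -0.61 ± 0.11 (SE), limma adjusted p = 0.00219). Uhrf1, which copies DNA methylation, went from 4691 and 5098 to 3623, 3366 and 3425 (log2 fold change -0.50 ± 0.0691 (SE), limma adjusted p = 0.000843), and Mcm3, a subunit of the replicative helicase, from 4330.1 and 4169 to 3488, 3006 and 3226 (log2 fold change -0.39 ± 0.0708 (SE), limma adjusted p = 0.00284). In AHR KO their log2 fold changes were -0.52, -0.22 and -0.01, of which that of Ccne2 was called. Mki67, the proliferation marker, was at 17651 and 17428 against 19653, 15182 and 16981 and did not pass the test (adjusted p = 0.86), nor did Ccnd1, at 19710.2 and 18997 against 17373, 18795 and 16902 (adjusted p = 0.128).

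Of 50 cholesterol and fatty acid genes, 13 fell and 9 rose (2 higher and 9 lower with the trend removed, 5 and 7 without DMSO 2, 7 and 7 without DMSO 3). In AHR KO 9 rose, and 0 fell by limma (2 at an unadjusted p under 0.05). The members that fell in WT included Hmgcs1, Fdft1, Cyp51 and Hsd17b7 of sterol synthesis. Hmgcs1, an early enzyme of the pathway, went from 13871 and 13450.4 to 9086, 10848 and 10419.5 (log2 fold change -0.44 ± 0.0796 (SE), limma adjusted p = 0.00303, and -0.28 with the trend removed). Cyp51, a demethylase of lanosterol, went from 15404 and 14816 to 10174, 11993 and 11736 (log2 fold change -0.42 ± 0.0864 (SE), limma adjusted p = 0.00525). Their AHR KO changes were -0.21 and -0.15, neither of them called, and the difference from WT was not called either (interaction adjusted p = 0.742 and 0.683). Among the members that rose were the sterol reductase Tm7sf2 (625 and 573 to 869, 913 and 974, log2 fold change 0.62, adjusted p = 0.00102) and Scap, the escort of the sterol sensor (1986 and 1987 to 3114, 2633 and 3433, log2 fold change 0.61, and 0.30 with the trend removed). In AHR KO Tm7sf2 rose by 0.47 and Scap by 0.38. Acacb, an acetyl-CoA carboxylase, rose from 141 and 136 to 280.3, 251 and 221 (log2 fold change 0.84, adjusted p = 0.0046), a call lost with the trend removed (log2 fold change 0.56, adjusted p = 0.0533).

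More chaperone genes fell than rose. Of 44 unfolded protein response and heat shock genes, 15 fell and 7 rose (3 higher and 10 lower with the trend removed, 5 and 7 without DMSO 2, 5 and 8 without DMSO 3). In AHR KO 8 fell and 5 rose. The mitochondrial chaperonin genes Hspd1 (25679 and 26362 to 19371, 19544 and 19389.8, log2 fold change -0.42) and Hspe1 (4729 and 4779 to 3605, 3365 and 3492, log2 fold change -0.45, and -0.27 with the trend removed) were lower in AHR KO with FICZ as well (-0.35 and -0.39). Hspa1b, the inducible HSP70, rose from 4039 and 4642 to 5789, 6451 and 5891 (log2 fold change 0.48, a call lost with the trend removed, adjusted p = 0.119), and by 0.44 in AHR KO. Its near-identical copy Hspa1a can share its reads. Hspa5, the chaperone of the endoplasmic reticulum, was at 22189 and 22652 against 19369, 24543 and 20505 (adjusted p = 0.649).

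Ribosomal protein genes (81) gave 14 calls upward and 23 downward (10 higher and 19 lower with the trend removed, 6 and 13 without DMSO 2, 9 and 12 without DMSO 3), with a range from Rplp1 (0.50) to Rpl23 (-0.54). Many have near-identical pseudogenes that can take part of their reads. Nuclear genes of oxidative phosphorylation rose more often than they fell (26 and 11 of 87), with 25 higher and 3 lower with the trend removed, 14 and 6 without DMSO 2, 20 and 7 without DMSO 3. Among those that rose were the complex III subunit Uqcrq (1503 and 1490.5 to 2086, 2480.4 and 2264, log2 fold change 0.60) and the ATP synthase subunit Atp5d (3994 and 4334 to 6442, 6008 and 6639.6, log2 fold change 0.61, and 0.32 with the trend removed). In AHR KO 17 ribosomal protein genes rose and 15 fell, and 21 and 12 of the oxidative phosphorylation genes, with changes of 0.44 and 0.66 for these 2 genes. Of 13 transcripts from mitochondrial DNA, 1 was called, mt-Co2, and that call was lost when either WT DMSO sample was left out (adjusted p 0.136 and 0.154).

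Junction, desmosome and keratin genes split into 9 higher and 12 lower of 45 (4 higher and 11 lower with the trend removed, 10 and 4 without DMSO 2, 5 and 7 without DMSO 3). The sealing claudin Cldn3 rose from 4152 and 4107 to 9090.2, 7636 and 8783 (log2 fold change 1.04 ± 0.0715 (SE), limma adjusted p = 3.12e-05, and 0.57 with the trend removed), and by 0.72 in AHR KO. Cldnd1, a claudin domain protein, rose from 1608 and 1640.3 to 3635, 3947 and 3786 (log2 fold change 1.22 ± 0.0552 (SE), limma adjusted p = 1.86e-06) and stood at 0.10 in AHR KO. Krt23, a keratin of simple epithelia, fell from 149.9 and 185 to 76.5, 92.3 and 70.7 (log2 fold change -1.06 ± 0.16 (SE), limma adjusted p = 0.00135). Krt8, the most abundant of the epithelial markers, did not pass the test (93143 and 88902 against 87237, 99738 and 94106, adjusted p = 0.706). Integrin, laminin and matrix genes (51) gave 15 upward and 2 downward (5 higher and 2 lower with the trend removed, 12 and 1 without DMSO 2, 9 and 5 without DMSO 3). Their median was 0.14 in WT and 0.15 in AHR KO. Col4a2, a collagen of basement membranes, rose from 2060.2 and 1849 to 3257, 3265 and 3523 (log2 fold change 0.78 ± 0.13 (SE), limma adjusted p = 0.00164), a call lost with the trend removed (adjusted p = 0.0525). The syndecan Sdc4 fell from 4804 and 4627 to 3349, 3923 and 3664 (log2 fold change -0.37 ± 0.0635 (SE), limma adjusted p = 0.0021).

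AP-1 and immediate early genes had the highest share of calls upward among groups of 20 or more genes (14 of 39, with 3 lower), but with 3 higher and 5 lower with the trend removed, 7 and 2 without DMSO 2, 6 and 2 without DMSO 3. The median was 0.17 in WT and 0.20 in AHR KO. Cebpb rose from 185 and 213 to 499, 381 and 552 (log2 fold change 1.24, 0.50 with the trend removed, 0.98 in AHR KO). Jund, an AP-1 subunit, rose from 3418 and 3296 to 5781, 4911 and 5756 (log2 fold change 0.70, and 0.63 in AHR KO). Its WT change became -0.05 with the trend removed (adjusted p = 0.435). Of 41 p53 targets and apoptosis genes, 9 rose and 6 fell (2 higher and 5 lower with the trend removed, 7 and 3 without DMSO 2, 3 and 5 without DMSO 3). The p53 target Cdkn1a was not called (3979.7 and 3168 against 3860.2, 3832 and 3770.3). The group of NAD, tryptophan and ADP-ribosylation genes (33) gave 6 upward and 3 downward (4 higher and 1 lower with the trend removed, 4 and 3 without DMSO 2, 4 and 2 without DMSO 3). Naprt, which makes NAD from nicotinic acid, rose from 154 and 145 to 267, 263 and 260.4 (log2 fold change 0.82, 0.50 with the trend removed, and 0.76 in AHR KO). Nampt, which makes it from nicotinamide, fell from 5300.5 and 5135 to 4058, 4067 and 4256 (log2 fold change -0.34, adjusted p = 0.124 with the trend removed).

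Hypoxia and glycolysis genes gave 1 call upward and 5 downward of 43 (0 higher and 4 lower with the trend removed, 1 and 2 without DMSO 2, 1 and 4 without DMSO 3). The circadian clock genes gave 3 downward of 21 and 0 upward by limma (1 at an unadjusted p under 0.05), with 0 higher and 4 lower with the trend removed, 0 and 1 without DMSO 2, 0 and 1 without DMSO 3. Among those that fell was Clock (3011 and 3015 to 2324, 2255 and 2431, log2 fold change -0.37). Of 337 zinc finger protein genes, 39 fell and 22 rose (12 higher and 19 lower with the trend removed, 8 and 16 without DMSO 2, 10 and 15 without DMSO 3). These shares, 11.6% lower and 6.53% higher, both lie below those over all genes (15.7 and 15.1%), with a median of -0.10, and of 0.014 with the trend removed. Replication-dependent histone genes had the highest median of all groups (0.89 in WT and 0.36 in AHR KO, 26 genes), but at low levels and with 5 calls upward (3 higher and 0 lower with the trend removed, 4 and 0 without DMSO 2, 1 and 0 without DMSO 3), and they share reads among near-identical copies. Hist2h3c2, at 3.89 and 3.75 in WT DMSO, reached 54.3, 19.4 and 27.7 in WT FICZ (log2 fold change 2.73, adjusted p = 0.00804).

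**Figure D3:**
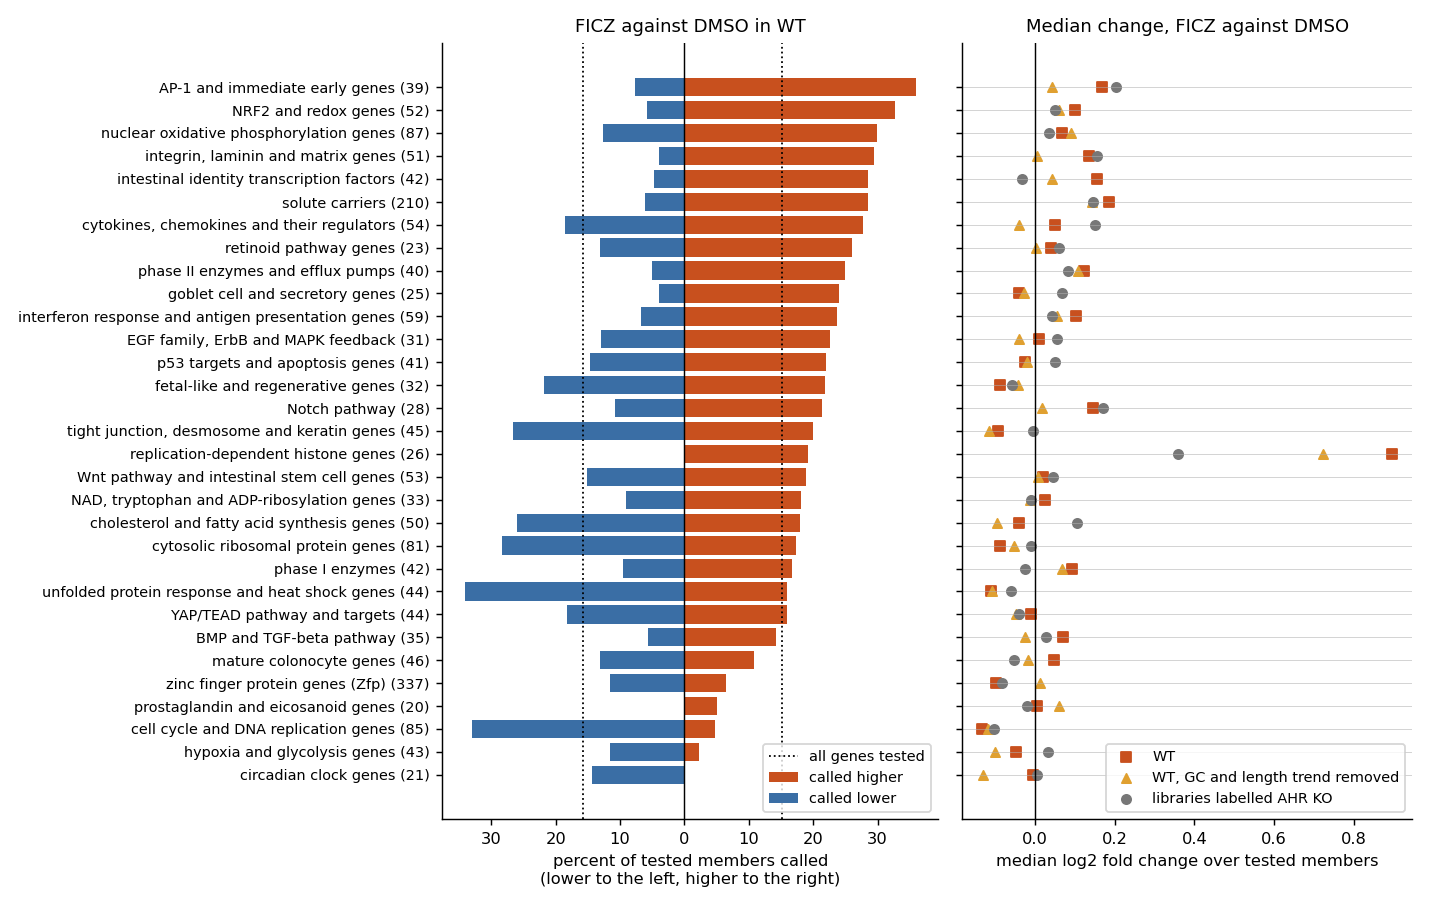
Left, percent of the tested members of each gene group (number in brackets) called higher (orange, to the right) or lower (blue, to the left) with FICZ in WT, with the shares over all genes tested, 15.1 and 15.7%, as dotted lines. Right, median log2 fold change of each group in WT, in WT with the GC and length trend removed, and in samples labelled AHR KO. Groups of fewer than 20 tested genes are left out. Redox genes and solute carriers exceed the upper line in calls, cell cycle and chaperone genes the lower line.

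The change in WT was set against that in AHR KO, which shares none of its control samples. In AHR KO 2509 genes were called (19.7%), 1301 higher (10.2%) and 1208 lower (9.48%), and of the 1930 genes higher in WT 998 were also called higher in AHR KO. The transcript of the targeted gene was not lower in the samples labelled AHR KO, at 1346 to 1443 normalised counts against 783 to 858 in WT, so that AHR KO stands here for samples labelled so. The difference between the 2 changes was called for 57 genes (0.447%), with the WT change higher for 48 (0.377%) and lower for 9 (0.0706%), and of the 48 genes 47 were called higher in WT. Of these 57 genes, 20 kept the call without each of the 9 samples in turn, 19 with the WT change higher and 1, Ccn2, with it lower. The number called was 23 without AHR KO DMSO replicate 1 (20 higher and 3 lower) and 23 without AHR KO DMSO replicate 3 (22 and 1). It was 33 without WT DMSO replicate 2 (31 and 2), 35 without WT DMSO replicate 3 (27 and 8), 33 without WT FICZ replicate 3 (26 and 7) and 78 without WT FICZ replicate 2 (60 and 18). The group of 57 holds the feedback genes Ahrr and Tiparp, the redox genes Nqo1, Osgin1 and Nfe2l2, the apical genes Mal, Mall and Sytl2, and the signalling genes Ccl28, Ptgs2 and Ereg. Of these 11 genes, Ahrr, Osgin1, Mal, Sytl2, Ccl28 and Ptgs2 lost the call without at least 1 sample (highest adjusted p = 0.0683, 0.069, 0.103, 0.235, 0.138 and 0.128). The 5 genes that follow were named after their values had been seen. Neurl3, a ubiquitin ligase, had 2528 and 2198 against 6535, 6635 and 6728 (log2 fold change 1.49 ± 0.0618 (SE), limma adjusted p = 1.75e-06). Fgf15 had an AHR KO change of -0.011 (interaction adjusted p = 0.0434, called with 1 sample left out in 0 of 9 fits, adjusted p up to 0.208 without AHR KO DMSO replicate 3). Ppard, a nuclear receptor for fatty acids, rose from 2399.8 and 2492 to 4427, 3762 and 4293 (log2 fold change 0.76, interaction adjusted p = 0.0206, called with 1 sample left out in 2 of 9 fits, adjusted p up to 0.141 without AHR KO DMSO replicate 1). Plcg2, a phospholipase of immune receptor signalling, rose from 549 and 534 to 1177, 1012 and 1063 (log2 fold change 0.997, interaction adjusted p = 0.00581). Cebpd was not called in WT (-0.25) but rose in AHR KO (0.73, interaction adjusted p = 0.0141, called with 1 sample left out in 5 of 9 fits, adjusted p up to 0.0966 without AHR KO DMSO replicate 3). Protein-coding genes that rose at least 2-fold in WT had a median log2 fold change of 1.28, and of 0.51 in AHR KO. Those that fell at least 2-fold had -1.24 in WT and -0.15 in AHR KO. Both sets were chosen by their WT change, so that a larger median change in WT is built into the choice. Cyp1a1, Ahrr and Cyp1b1 were called higher in the AHR KO samples too. Cyp1b1 changed by 2.52 there on the log2 scale. Cyp1a1 was at 0 and 2.93 in AHR KO DMSO and at 100.3 and 139 with FICZ, and its difference from WT was not called (interaction adjusted p = 0.0677). Ahrr was at 0 in both AHR KO DMSO samples and at 16.9 and 17.3 with FICZ, so that for both genes the size of the change there, and of the difference from WT, depends on the pseudocount.

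**Figure D4:**
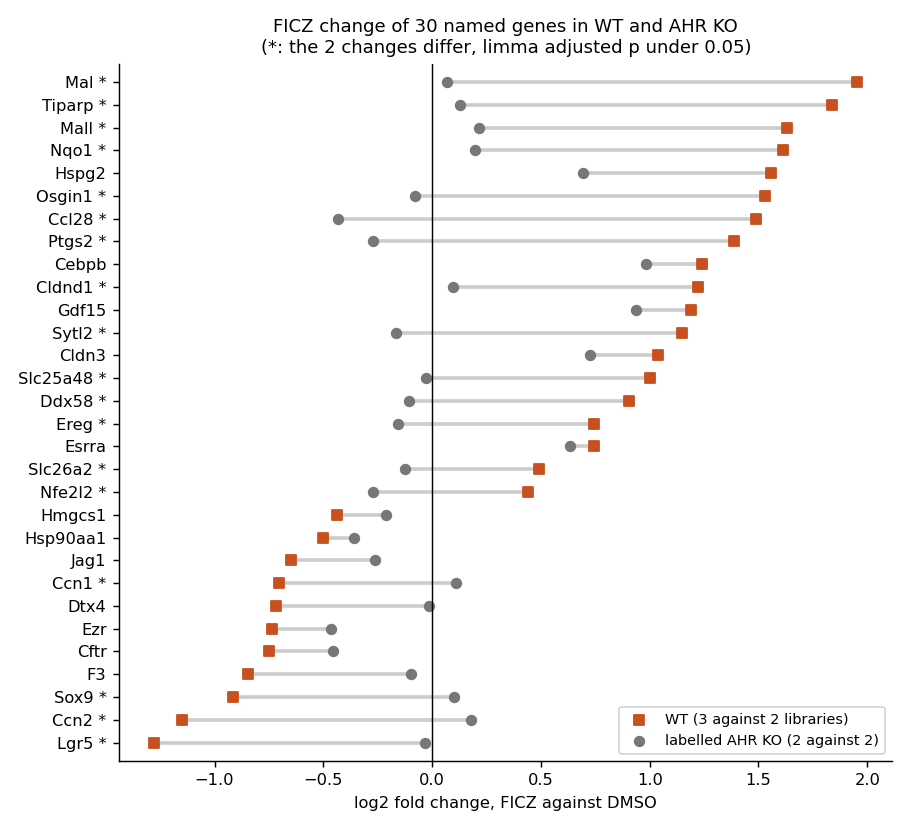
Log2 fold change with FICZ of 30 of the genes named in the text, in WT (orange squares, 3 samples against 2) and in samples labelled AHR KO (grey circles, 2 against 2), joined by a grey line. An asterisk marks genes for which the 2 changes differ by limma with all samples in the fit. Mal, Tiparp, Mall and Nqo1 lie far right in WT and near 0 in AHR KO, while Gdf15, Cebpb and Esrra change alike in both.

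Long noncoding genes and transcripts of type TEC, a class not yet assigned as coding or noncoding, were examined last. Gm44231, of type TEC, rose from 20.4 and 33 to 108, 72.1 and 75.1 (log2 fold change 1.65 ± 0.28 (SE), limma adjusted p = 0.00205), and Gm26880, a long noncoding gene, from 147 and 192 to 391, 590.2 and 345 (log2 fold change 1.35 ± 0.21 (SE), limma adjusted p = 0.00136). Both rose in AHR KO too (log2 fold changes 1.08 and 1.01, adjusted p = 0.0336 and 0.0152), and the difference from WT was not called (interaction adjusted p = 0.86 and 0.889). Gm26917, which lies beside ribosomal RNA sequence, rose from 763 and 829 to 2388, 1832 and 2197 in WT and alike in AHR KO (log2 fold changes 1.42 and 1.49, and 0.52 in WT with the trend removed). Gm45397 fell from 210.3 and 150.5 to 82, 65.7 and 58.8 (log2 fold change -1.37 ± 0.18 (SE), limma adjusted p = 0.000676), with -0.39 in AHR KO (adjusted p = 0.203). Gm42887, of type TEC, fell from 149.9 and 136 to 83.8, 72.7 and 90.3 (log2 fold change -0.79 ± 0.16 (SE), limma adjusted p = 0.00432), and by a log2 change of -0.56 in AHR KO (adjusted p = 0.0443). The fall of C130073E24Rik, from 258 and 251 to 144, 170.1 and 124 (log2 fold change -0.81, and -1.05 in AHR KO), was lost without WT DMSO replicate 2 (adjusted p = 0.0564).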

How the data were processed

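Total RNA was measured by stranded, ribosome-depleted RNA sequencing in 9 colon organoid samples, and 5 of these, the WT samples, carry the comparison described. The authors deposited 1 table of 48795 genes with normalised counts, a signal per gene scaled between samples. The methods of the study name alignment to mm10 and counting of reads with summarizeOverlaps, and the submitters' processing notes list RSEM 1.2.31, STAR 2.5.2a, DESeq2 1.16.1 and GRCm38. Such scaling and the counting of reads shared between copies can move values of near-identical genes. Low values came out near whole reads (tolerance 0.05) for 49.8 to 61.3% of genes, so no count model was used. Approximate depth was 21540000 to 30076000 reads per sample. Replicate numbers follow the sample descriptions.

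Genes that averaged at least 10 in the 9 samples were fitted as log2(value + 1) by limma 3.58.1 in R 4.3.3 with 1 mean per group, and called at a Benjamini-Hochberg adjusted p under 0.05. The log2 scale with a pseudocount of 1 understates changes of low genes. The fit was tested on simulated data. GC and length trends were removed per sample with splines of 5 degrees of freedom. Gene types, lengths and GRCm38 positions came from GENCODE M21 (48435 genes matched), promoters and sequences from RefSeq GRCm38.p6. Gene lists and members were chosen with earlier results of these data known. Named genes were the 15 highest and 15 lowest protein-coding genes (average at least 50, no overlap), up to 3 called members at each end of each list, its most abundant uncalled member and those needed to describe it, the 3 highest and lowest long noncoding or TEC genes, and up to 4 genes with printed promoters. Full values are given mainly for genes whose call held when each sample was left out. Alternatives were another pseudocount, filter, scaling or fit, removal of the trend, a replicate block and leaving out each sample. A few members of the lists are counted but not reported by name here.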

Additional observations from a re-analysis of the deposited data

Results flagged for a closer look

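The FICZ change differed between WT and samples labelled AHR KO, by the interaction term in limma, for the genes listed here. Each value is the difference of the 2 log2 changes, WT less AHR KO. Of the 57 genes with such a difference, 20 kept it without each sample in turn, 19 of the 48 with the WT change higher and 1 of the 9, Ccn2, with it lower. Groups held 2 or 3 samples, too few for a check on single samples that stand apart. Among AHR feedback and metabolic genes the differences were 3.39 for Ahrr, 1.71 for Tiparp, 2.91 for Aldh3a1, 2.31 for Slc2a6 and 0.48 for Gsta4. With 1 sample left out in turn, the call held for Aldh3a1 in 3 of 9 fits and for Gsta4 in 2 of 9. The value of Ahrr depends on the pseudocount, since Ahrr was at 0 in both AHR KO DMSO samples (0.78 with a pseudocount of 0.1 and 3.95 with 10). Redox genes gave 1.61 for Osgin1, 1.41 for Nqo1 and 0.71 for Nfe2l2. Membrane and transport genes gave 1.89 for Mal, 1.42 for Mall, 1.32 for Sytl2, 1.13 for Cldnd1, 1.03 for Slc25a48 and 0.62 for Slc26a2. Signalling genes gave 1.92 for Ccl28, 1.66 for Ptgs2, 1.34 for Neurl3, 1.18 for Fgf15, 1.01 for Plcg2, 1.01 for Ddx58 and 0.90 for Ereg. Transcription factors gave 0.68 for Ppard, -0.98 for Cebpd and -1.01 for Sox9. The WT change lay below that of AHR KO for Lgr5 (-1.24), Ccn2 (-1.33), Ccn1 (-0.81) and Lrig1 (-0.39). Calls in that direction numbered 1 without AHR KO DMSO replicate 3, 2 without WT DMSO replicate 2 and 3 without AHR KO DMSO replicate 1, and the highest adjusted p on leaving out 1 sample was 0.0611 for Lgr5, 0.159 for Ccn1, 0.258 for Lrig1, 0.087 for Sox9 and 0.0966 for Cebpd.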

How the results depend on the processing

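The number of genes called in WT was 2313 with the GC and length trend removed, where 1792 of the 3928 kept their direction and call and 6 were called the other way. Leaving out 1 sample gave 1990 to 4133 calls, lowest without WT DMSO replicate 2 and highest without WT FICZ replicate 2, and 23 to 78 calls of a difference between genotypes. With the trend removed the sign of Jund (-0.0498), Bbc3 (-0.032), Cdx1 (-0.0464) and Keap1 (-0.0262) turned. Of 222 genes that the naming rule selected and that were called in WT, 133 kept the call without each sample. The cause of these changes was not tested. Samples sharing a replicate number correlated in their deviations at 0.0346 to 0.0498, too little to treat them as pairs. With the replicate number as a block 3412 genes were called in WT and 39 differed between genotypes. With the number as a random block these were 4104 and 60. With a block over the samples numbered 2 and 3 only, 2380 genes were called in WT. Other pseudocounts, filters, scalings and fits gave 3325 to 3941 calls.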
